A study of Arabidopsis thaliana with 24 samples.

Results

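The difference of the response to abscisic acid (ABA) between the Arabidopsis thaliana line FyPP3DN and wild type (WT) was described for every gene with at least 1 FPKM (fragments per kilobase of transcript, relative to sequencing depth) in at least 3 of 12 libraries, which held for 19087 of 32833 genes. For each gene, the log2 change of FPKM + 1 with ABA in WT was subtracted from the same change in FyPP3DN. A negative difference therefore means a smaller rise or a larger fall with ABA in FyPP3DN than in WT. The 4 groups, with 3 libraries each, were FyPP3DN with 5 µM ABA for 24 h, FyPP3DN without ABA for the same time, WT with ABA and WT without ABA, all from vertically grown seedlings in the Columbia 0 background. FyPP3DN carries a dominant-negative form of FYPP3; neither the promoter of the transgene nor the number of independent lines is stated in the labels. The sample labels put the seedlings at 5 days before treatment, whereas by the design text they grew for 6 days and were treated for 1 day, 7 days in all. Nothing in the labels says that the replicates were separate cultures, so p-values measure the spread between libraries. That spread was pooled for each gene over all 24 libraries of the series, so both lines share it.

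ABA is the hormone of drought and seed dormancy. Bound to its PYR/PYL receptors it inhibits the clade A PP2C phosphatases, which frees SnRK2 kinases to activate bZIP factors such as ABI5 and the ABFs, and these bind promoter elements with an ACGT core. FYPP1 and FYPP3 are the catalytic subunits of the phosphatase PP6, known in Arabidopsis to act on ABI5 and in auxin transport. The series title places FyPP3 in the repression of auxin-mediated growth by ABA. The difference of the 2 responses asks which transcripts respond to ABA differently in the line with the dominant-negative form.

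Depth was 16.6 to 29.1 M fragments per library. Plastid-encoded transcripts made up 11.9% to 18.8% of the summed FPKM in 1 library of each group, called plastid-rich here, and 0.0252% to 0.0877% in the other 2, called plastid-poor. This library type was a term in the model. The median SD of log2(FPKM + 1) between replicates was 0.19 in FyPP3DN with ABA, 0.20 in FyPP3DN without ABA, and 0.15 in each WT group.

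FYPP3 (AT3G19980, chromosome 3, 6961736 to 6965206 in TAIR10.1) had 24.9, 22.5 and 29.3 FPKM in FyPP3DN with ABA, 46.7, 34.5 and 85.2 in FyPP3DN without ABA, 16.7, 15.97 and 16.4 in WT with ABA, and 18.3, 15.71 and 12.7 in WT without ABA. All 6 FyPP3DN libraries were above all 6 WT libraries. The reads do not tell the transgene from the native gene. FYPP3 was higher in FyPP3DN than in WT without ABA (log2 1.68 ± 0.20 SE, limma adjusted p = 9.35e-05), and with ABA the difference was 0.61 ± 0.20 (adjusted p = 0.125). With ABA, FYPP3 fell in FyPP3DN (-0.99 ± 0.20, limma adjusted p = 0.00245), while its response in WT was 0.08 ± 0.20 (adjusted p = 0.875). Its difference of ABA response was -1.08 ± 0.28 (adjusted p = 0.104), and without FyPP3DN control replicate 2 it was called (adjusted p = 0.00596). The paralog FYPP1 stood at 21.7 ± 1.71 FPKM in FyPP3DN with ABA, 21.98 ± 0.81 in FyPP3DN without, 23.5 ± 1.12 in WT with ABA and 23.1 ± 1.09 in WT without (SD, n = 3 each). MMZ3, a ubiquitin E2 variant gene, was lower in FyPP3DN under both conditions, at 12.8 ± 0.27 FPKM with ABA and 11.8 ± 1.53 without, against 51.2 ± 2.48 and 56.3 ± 2.71 in WT, and its ABA responses did not pass the test in either line.

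In FyPP3DN, a set of genes that ABA raised in WT rose less or not at all. The difference of ABA response was called lower for 70 of the 19087 genes (0.367%) and called higher for 15 (0.0786%) at an adjusted p under 0.05. The 70 were chosen by the difference of the responses, so the choice favours a high WT response and a low FyPP3DN response. The counts and medians that follow share its libraries, describe these genes and add no support to the calls. Of the 70, 63 were called up with ABA in WT, against 6.11% of all genes tested. In FyPP3DN 12 of the 70 were called up, 15 were called down and 43 passed in neither direction, where 5.12% of all genes tested were called up and 5% down (10.1% in either direction). Their median response was -0.07 on the log2 scale in FyPP3DN and 1.49 in WT. The plot of one line's response against the other's shows most of them as a band to the right of 0, below the line of equal values.

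The number of calls depended on the model and on single libraries. Without the library type term, 2 genes were called higher and 26 lower, and with the replicate number as a block in its place 3 and 25. On the 12 libraries alone the counts were 2 and 24 with the term and 0 and 6 without it, where 1338 genes had an unadjusted p under 0.05 with limma. With the 8 plastid-poor libraries 1 gene was called higher and 8 lower, and the 4 plastid-rich libraries, 1 a group, allow no test. Leaving out 1 library gave 428 calls in all without FyPP3DN control replicate 2, 128 without WT +ABA replicate 3, and 30 without WT +ABA replicate 1, beside 85 with all libraries. It gave 37 without WT control replicate 1, 40 without WT control replicate 3, 38 without FyPP3DN control replicate 3, 46 without WT +ABA replicate 2 and 42 without FyPP3DN +ABA replicate 2. No difference of these 85 genes changed sign in these fits. The genes were chosen for a large difference in the same libraries, so the kept sign adds no support. Whichever library was left out, 27 of the 85 remained called. Only 2 of the 85 were called in every alternative of model, library set, pseudocount, filter and scaling.

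**Figure D1:**
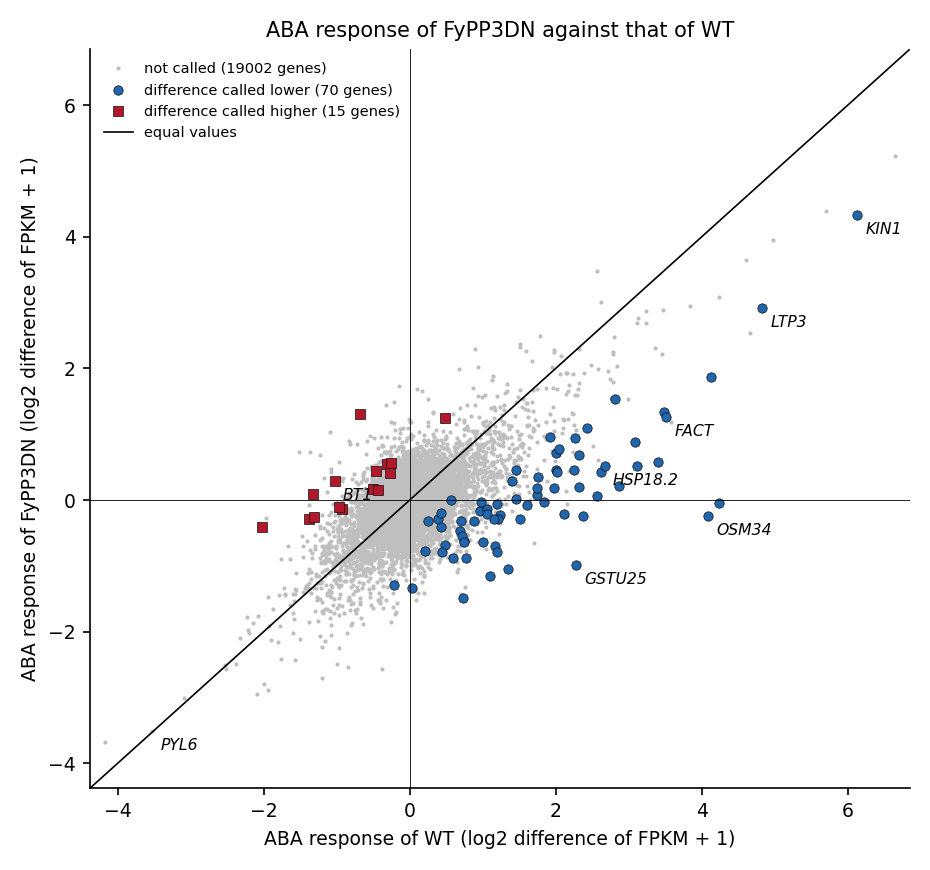
Each point is a gene, with the ABA response of WT on the x axis and that of FyPP3DN on the y axis, both as log2 differences of FPKM + 1. The 70 genes called lower (circles) have a median of -0.07 in FyPP3DN and 1.49 in WT, and the 15 called higher (squares) lie above the line of equal values.

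A smaller rise in FyPP3DN can come from a higher level without ABA, a lower level with ABA, or both. With ABA, 52 of the 70 genes were called lower in FyPP3DN than in WT (1.53% of all genes tested, and 1.88% in either direction). Without ABA, 19 were called higher (1.09% of all genes tested, and 2.44% in either direction) and 1 lower. The commonest combination, in 29 genes, was a rise in WT, no call in FyPP3DN, no call between the lines without ABA and a lower level in FyPP3DN with ABA. A further 7 genes rose in WT and differed between the lines without ABA alone. These comparisons share libraries with the difference of the responses, so the counts describe its parts and add no support to it.

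**Figure D2:**
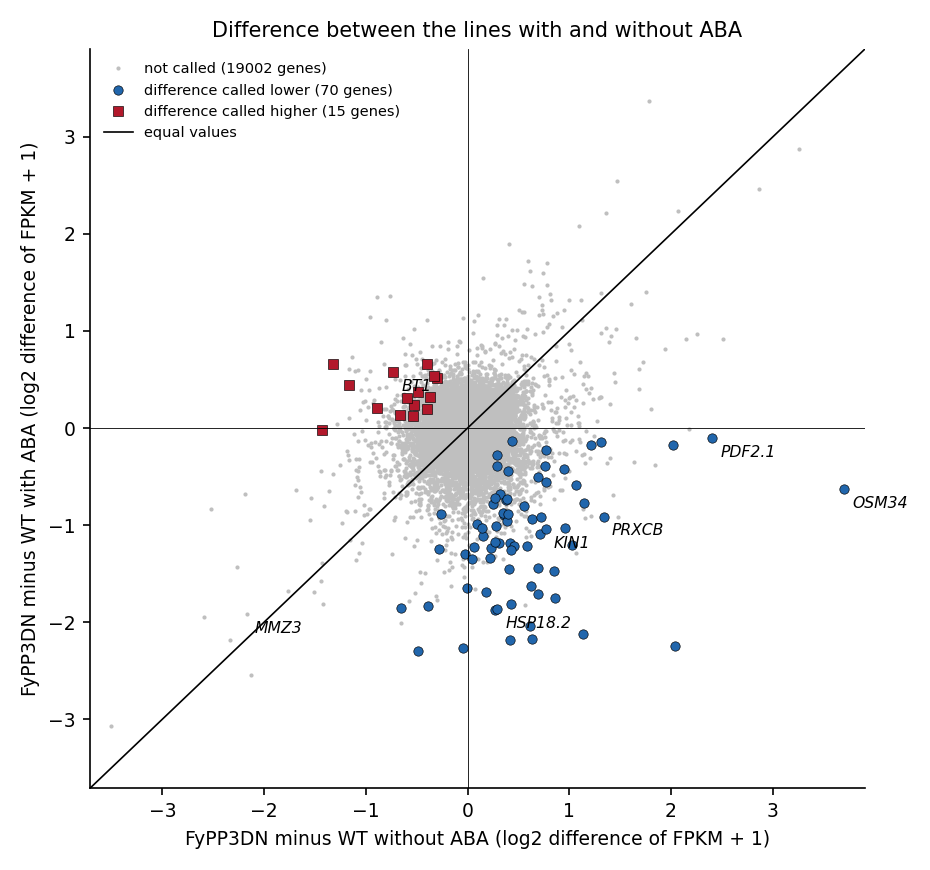
Each point is a gene, with FyPP3DN minus WT without ABA on the x axis and FyPP3DN minus WT with ABA on the y axis, both as log2 differences of FPKM + 1. OSM34 and PDF2.1 lie far to the right, at 3.70 and 2.40 without ABA, whereas HSP18.2 lies low, at -1.87 with ABA, and MMZ3 lies near the line of equal values.

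OSM34 and PDF2.1 were already high in FyPP3DN without ABA. OSM34 (AT4G11650, chromosome 4, 7024852 to 7026224), which encodes an osmotin-like protein of the thaumatin family, had 56.2, 36.4 and 124 FPKM in FyPP3DN with ABA, 72.6, 48.0 and 123 in FyPP3DN without ABA, 90.3, 112 and 95.7 in WT with ABA, and 3.15, 4.5 and 7.84 in WT without ABA. Both FyPP3DN groups overlapped WT with ABA, and only WT without ABA stood apart, below every other library. The ABA response was -0.25 ± 0.34 (SE) in FyPP3DN and 4.09 ± 0.34 in WT, a difference of -4.33 ± 0.48 (limma adjusted p = 0.00016). Of all genes tested, OSM34 had the lowest difference. PDF2.1 (AT2G02120, chromosome 2, 538250 to 539123), a plant defensin gene, had 21.4, 30.5 and 30.0 FPKM in FyPP3DN with ABA, 25.5, 20.7 and 32.1 in FyPP3DN without, 36.5, 32.8 and 20.2 in WT with ABA, and 4.08, 5.22 and 3.06 in WT without. Here too WT without ABA was the group that stood below the others, and the difference was -2.51 ± 0.39 (adjusted p = 0.00498). Both calls were kept without the library type term and with any 1 library left out, and were lost in the plastid-poor libraries alone (adjusted p = 0.0563 for OSM34 and 0.162 for PDF2.1).

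The list of osmotin, defensin and chitinase genes had 6 members tested, of which these 2 were called and all 6 had a difference below 0, with a median of -1.76 against 0.03 over all genes tested, where 45.3% were below 0. The basic chitinase gene AT3G12500 had -1.97 ± 0.47 (adjusted p = 0.0715) and PR4, a hevein-like gene, -1.55 ± 0.44 (adjusted p = 0.134). This list, like the others below, was chosen with earlier results of these data known. Its values describe its members and add no support to the calls of OSM34 and PDF2.1.

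HSP18.2, ICS2 and GSTU25 were called up with ABA in WT and lower in FyPP3DN than in WT with ABA. In FyPP3DN the responses of HSP18.2 (0.51) and ICS2 (0.20) did not pass, and GSTU25 fell (-0.99, limma adjusted p = 0.0384). ICS2 and GSTU25 were also called higher in FyPP3DN without ABA (0.69 and 1.14, adjusted p = 0.0499 and 0.0482). HSP18.2 (AT5G59720, chromosome 5, 24062323 to 24063300), a cytosolic small heat shock protein gene, had 6.89, 5.69 and 5.19 FPKM in FyPP3DN with ABA, 4.79, 3.32 and 3.51 in FyPP3DN without, 27.5, 19.0 and 26.9 in WT with ABA, and 3.24, 3.6 and 2.15 in WT without. The 3 WT libraries with ABA stood above the other 9, and the difference of responses was -2.16 ± 0.28 (adjusted p = 0.000838). ICS2 (AT1G18870, chromosome 1, 6515373 to 6519395), an isochorismate synthase gene, had 5.14, 4.58 and 4.70 FPKM in FyPP3DN with ABA, 3.81, 2.81 and 6.09 in FyPP3DN without, 10.4, 15.3 and 19.9 in WT with ABA, and 2.29, 2.33 and 1.83 in WT without (difference -2.13 ± 0.26, adjusted p = 0.000519). The FyPP3DN groups overlapped each other and lay between the WT groups. GSTU25 (AT1G17180, chromosome 1, 5872024 to 5873124), a tau-class glutathione transferase gene, had 1.45, 1.08 and 4.12 FPKM in FyPP3DN with ABA, 6.29, 1.66 and 9.59 in FyPP3DN without, 9.76, 12.6 and 13.9 in WT with ABA, and 1.05, 1.91 and 2.23 in WT without (difference -3.26 ± 0.42, adjusted p = 0.000838). The 2 FyPP3DN groups overlapped, and their plastid-poor libraries without ABA were well above WT without ABA. ICS2 and GSTU25 kept their calls in the plastid-poor libraries (adjusted p = 0.00672 and 0.0234); on the 12 libraries without the library type term neither passed.

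**Figure D3:**
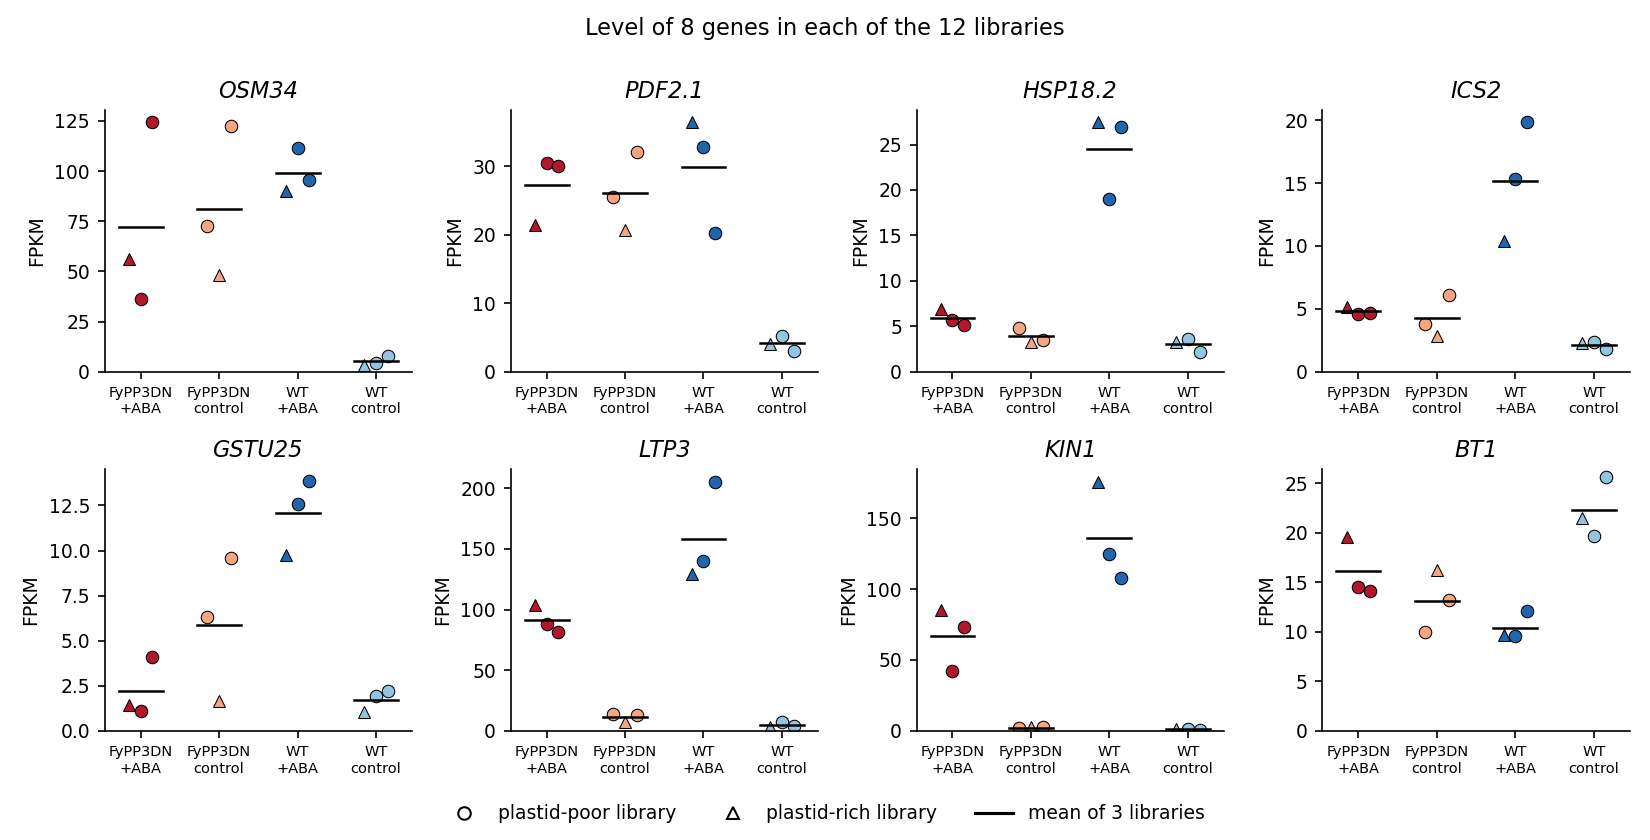
FPKM of 8 genes in each of the 12 libraries, by group, on linear axes from 0. Circles are plastid-poor and triangles plastid-rich libraries, and bars are means of 3; OSM34 and PDF2.1 are low in WT without ABA alone, HSP18.2 and ICS2 are high in WT with ABA alone, and BT1 is highest in WT without ABA.

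LTP3 and KIN1, both classical ABA-induced genes, rose strongly in both lines and less in FyPP3DN. LTP3 (AT5G59320, chromosome 5, 23928954 to 23929816), a lipid transfer protein gene, had 104, 87.8 and 81.4 FPKM in FyPP3DN with ABA, 13.6, 7.51 and 13.3 in FyPP3DN without, 130, 140 and 206 in WT with ABA, and 3.05, 7.45 and 3.83 in WT without. The groups with ABA did not overlap, and those without ABA barely missed doing so. The ABA response was 2.92 ± 0.24 in FyPP3DN and 4.83 ± 0.24 in WT (difference -1.91 ± 0.33, adjusted p = 0.0106). KIN1 (AT5G15960, chromosome 5, 5209717 to 5210826), a small cold- and ABA-induced protein gene, had 85.5, 42.3 and 73.6 FPKM in FyPP3DN with ABA, 1.61, 2.47 and 2.82 in FyPP3DN without, 176, 125 and 108 in WT with ABA, and 1.14, 1.01 and 0.63 in WT without. Its response was 4.33 ± 0.23 in FyPP3DN and 6.13 ± 0.23 in WT (difference -1.81 ± 0.32, adjusted p = 0.0117). The KIN1 call was lost without WT +ABA replicate 1 (adjusted p = 0.0548), and both were lost in the plastid-poor libraries (0.11 for LTP3 and 0.129 for KIN1). Each has a tandem copy with which reads may be shared. LTP4 had a difference of -1.43 ± 0.34 (adjusted p = 0.0715; 0.0318 without FyPP3DN +ABA replicate 3) and KIN2 one of -0.37 ± 0.24 (adjusted p = 0.501).

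The promoter sequences of OSM34, KIN1, RD29B and BT5 are shown because they span the patterns found: OSM34 with no net response in FyPP3DN, KIN1 with a reduced one, RD29B with a difference that did not pass the test, and BT5 with a difference above 0. Each is the 250 bases before the annotated start in the TAIR10.1 reference (RefSeq), 5′ to 3′ on the gene's strand, with ACGTG on either strand and GAANNTTC, a heat shock element core, in capitals.
OSM34, chr4:7026225-7026474, minus strand: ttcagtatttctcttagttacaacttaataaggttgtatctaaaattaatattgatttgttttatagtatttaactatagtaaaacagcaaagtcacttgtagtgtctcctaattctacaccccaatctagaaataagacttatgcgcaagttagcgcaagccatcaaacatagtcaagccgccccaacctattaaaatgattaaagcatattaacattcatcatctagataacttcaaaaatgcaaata
KIN1, chr5:5209467-5209716, plus strand: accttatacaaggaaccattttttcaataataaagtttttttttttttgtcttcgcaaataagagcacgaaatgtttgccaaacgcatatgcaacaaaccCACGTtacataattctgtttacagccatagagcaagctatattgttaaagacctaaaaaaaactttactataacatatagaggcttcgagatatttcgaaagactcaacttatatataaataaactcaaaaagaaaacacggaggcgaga
RD29B, chr5:21236771-21237020, plus strand: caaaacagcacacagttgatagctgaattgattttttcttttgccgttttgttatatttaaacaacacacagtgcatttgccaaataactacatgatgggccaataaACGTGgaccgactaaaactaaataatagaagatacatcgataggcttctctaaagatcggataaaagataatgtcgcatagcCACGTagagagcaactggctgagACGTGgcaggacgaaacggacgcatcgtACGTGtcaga
BT5, chr4:17672354-17672603, minus strand: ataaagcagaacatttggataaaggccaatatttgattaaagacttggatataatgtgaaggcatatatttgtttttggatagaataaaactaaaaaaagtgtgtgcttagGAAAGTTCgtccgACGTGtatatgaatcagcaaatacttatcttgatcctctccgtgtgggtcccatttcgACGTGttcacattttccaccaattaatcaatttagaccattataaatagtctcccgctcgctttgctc
In these windows ACGTG occurred 4 times in RD29B, 2 times in BT5 and 1 time in KIN1, and in OSM34 neither motif was found. Over promoters of this length, ACGTG was present in 24 of 70 genes called lower (34.3%), 6 of 15 called higher (40%), 185 of 486 genes called up with ABA in both lines (38.1%), and 4433 of 18958 genes tested (23.4%). GAANNTTC was present in 5 of 70 (7.14%), 3 of 15 (20%), 40 of 486 (8.23%) and 1732 of 18958 (9.14%) of the same sets. These are matches of letters, and ACGTG can fall within longer palindromes where the 2 strands overlap.

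The core ABA pathway responded in both lines. Among 28 ABA-responsive genes, 23 were called up in FyPP3DN and 26 in WT, with median responses of 1.60 and 1.71. LTP3 and KIN1 were called lower in the difference, and 26 of 28 had a difference below 0, with a median of -0.46. The median lay between -0.34 and -0.61 with any 1 library left out, and was -0.66 in the plastid-poor and -0.23 in the plastid-rich libraries. The number below 0 fell to 18 without FyPP3DN control replicate 3, and was 22 in the plastid-poor and 21 in the plastid-rich libraries. RD29B, a late embryogenesis-like gene, had 18.3, 7.56 and 14.9 FPKM in FyPP3DN with ABA, 0.42, 0.64 and 2.59 in FyPP3DN without, 14.1, 9.67 and 13.1 in WT with ABA, and 0.72, 0.56 and 0.27 in WT without. The lines overlapped under both conditions, and the difference was -0.36 ± 0.49 (adjusted p = 0.777). The differences of COR15A (-1.31 ± 0.47), RD29A (-0.58 ± 0.40) and the dehydrin gene RAB18 (-0.75 ± 0.84) did not pass either, with adjusted p = 0.23, 0.536 and 0.718.

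Among signalling components, most PP2C and receptor genes responded in both lines, and a minority of SnRK2 and bZIP genes did. Of all genes tested, 5.12% were called up with ABA in FyPP3DN and 6.11% in WT, and 5% and 5.03% were called down. Of 8 clade A PP2C genes, all 8 were called up in FyPP3DN and 7 in WT, with a median difference of -0.08. No PP2C gene was called in the difference by limma, and 1 had an unadjusted p under 0.05. ABI1, the founding PP2C, rose by 0.78 ± 0.12 in FyPP3DN and 0.64 ± 0.12 in WT, on the log2 scale. Of 9 receptor genes 6 were called down in FyPP3DN and 5 in WT. PYL6 fell to 0.46, 0.62 and 1.16 FPKM in FyPP3DN with ABA, against 19.5, 18.9 and 17.39 without, and to 0.86, 1.06 and 0.32 in WT with ABA, against 15.3, 18.4 and 23.8 without. The response was -3.51 in FyPP3DN and -3.53 in WT, a difference of 0.02 ± 0.26 (adjusted p = 0.981). PYL8 had a difference of 0.57 ± 0.14 (adjusted p = 0.0878). Of 10 SnRK2 and bZIP genes 3 were called up in FyPP3DN and 4 in WT; no member was called in the difference by limma, and 2 had an unadjusted p under 0.05. The ABA response of ABI5 was 0.24 ± 0.12 in FyPP3DN (adjusted p = 0.208) and 0.47 ± 0.12 in WT (adjusted p = 0.0113), and their difference did not pass (-0.22 ± 0.17, adjusted p = 0.568).

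A set of ABA-regulated genes was chosen by the response in libraries other than these 12. The filter of at least 1 FPKM in at least 3 of these 12 still applied. A low gene could pass it through 1 group alone, such as WT with ABA, so the choice was not wholly free of their values. The values below describe these genes and are no independent support. In the other 12 libraries of the series, 6 of nrp1 nrp2 and 6 labelled as its combination with FyPP3DN, 323 genes were induced and 202 repressed by ABA at an adjusted p under 0.05 and a change of at least 1 on the log2 scale. The combination libraries did not show raised FYPP3, and genes that respond to ABA in FyPP3DN alone could not enter the set. Of the 323, 313 were called up with ABA in WT and 197 in FyPP3DN. How far the choice bears on the values below was not tested. The 323 induced genes had a median response of 0.83 in FyPP3DN and 1.48 in WT, and 285 of them (88.2%) had a difference below 0, against 45.3% of all genes tested. Their median level, as log2(FPKM + 1), was 3.05, 2.77 and 3.01 in FyPP3DN with ABA and 1.76, 1.75 and 2.2 in FyPP3DN without, against 3.56, 3.5 and 3.51 in WT with ABA and 1.7, 1.83 and 1.68 in WT without. With ABA the 3 FyPP3DN libraries lay below the 3 WT libraries, and without ABA the lines overlapped. The median difference was -0.64, and it ranged from -0.54 to -0.75 over the plastid-poor libraries, the plastid-rich libraries and each library left out.

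For the repressed genes the median difference was near 0. The 202 had median responses of -1.25 in FyPP3DN and -1.12 in WT, a median difference of 0.0043, and 99 of 202 (49%) below 0. That median changed sign with the libraries used, from 0.15 in the plastid-poor to -0.38 in the plastid-rich ones. Of the 323 induced genes 40 (12.4%) were called lower in the difference, against 0.367% of all genes tested. Of the 202 repressed genes 4 were called higher, against 15 of all 19087 genes tested (0.0786%).

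**Figure D4:**
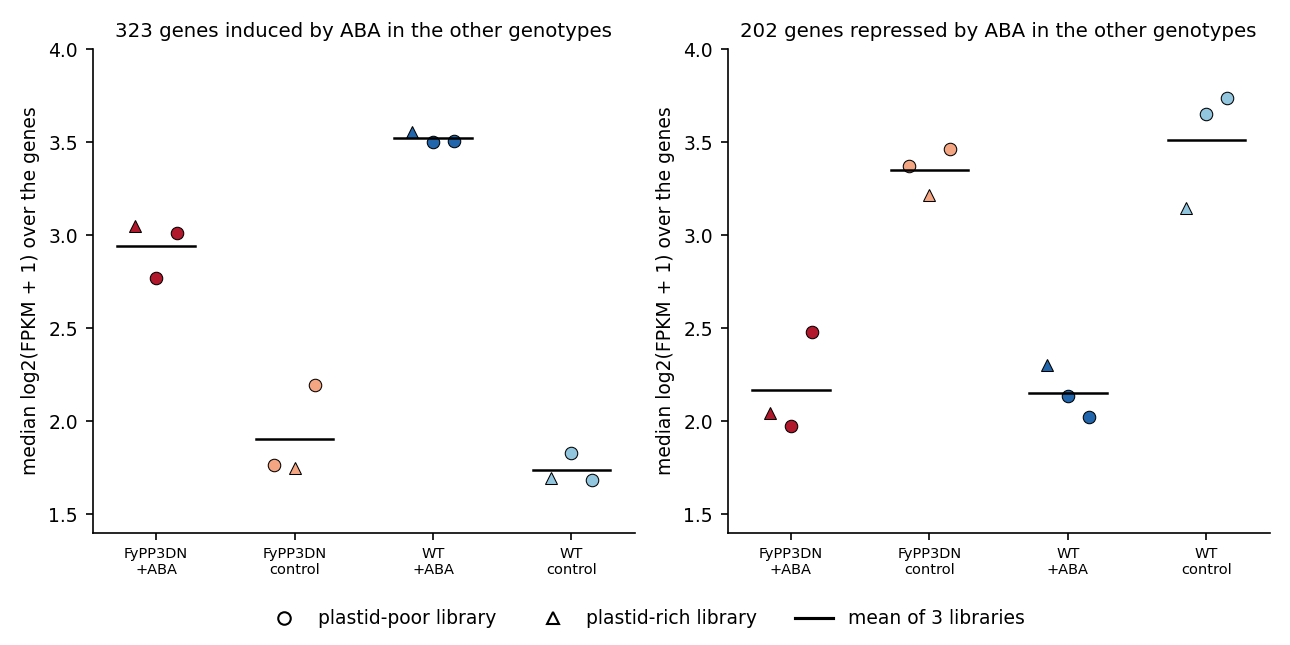
Median log2(FPKM + 1) over 323 induced (left) and 202 repressed genes (right) in each of the 12 libraries; bars are means of 3, circles plastid-poor and triangles plastid-rich libraries. The induced genes reach 2.77 to 3.05 in FyPP3DN and 3.5 to 3.56 in WT with ABA, while the repressed genes overlap between the lines.

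The defence and secondary metabolism lists differed in their medians. The 11 salicylic acid and immunity genes had a median difference of 0.15, with 3 below 0. Without WT control replicate 1 that median was 0.01, with 5 below 0, so the list had no firm direction. No member was called by limma, and 1 had an unadjusted p under 0.05. The glucosinolate, jasmonate and glutathione transferase lists had medians below that of all genes tested. In the indole glucosinolate list 15 of 16 genes had a difference below 0 (median -0.78), and 1 was called. In FyPP3DN 1 of the 16 was called up with ABA and 6 down, against 9 up and 2 down in WT. The called member was IGMT5, a methyltransferase gene of indole glucosinolate modification, with 36.5 ± 4.1 FPKM in FyPP3DN with ABA, 36.3 ± 14.6 in FyPP3DN without, 86.1 ± 11.6 in WT with ABA and 24.9 ± 3.1 in WT without (SD, n = 3 each; difference -1.67 ± 0.32, adjusted p = 0.0187). All 12 aliphatic glucosinolate genes had a difference below 0 (median -0.69), with 4 called up and 1 down in FyPP3DN, against 10 up and 0 down in WT. The median was -0.41 without FyPP3DN control replicate 3 and -0.25, with 8 of 12 below 0, in the plastid-rich libraries. No aliphatic glucosinolate gene was called in the difference by limma, and 9 had an unadjusted p under 0.05. In the 15 jasmonate genes the median was -0.49 with 11 below 0; it was -0.29 without FyPP3DN +ABA replicate 2, -0.32 without FyPP3DN control replicate 3 and -0.28 in the plastid-rich libraries. VSP1, a vegetative storage protein gene induced by jasmonate, was called (-2.61 ± 0.57, adjusted p = 0.0473) and its tandem copy VSP2 was not (-2.39 ± 0.54, adjusted p = 0.0529). Of 26 glutathione transferase genes GSTU25 was called, and 20 had a difference below 0.

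**Figure D5:**
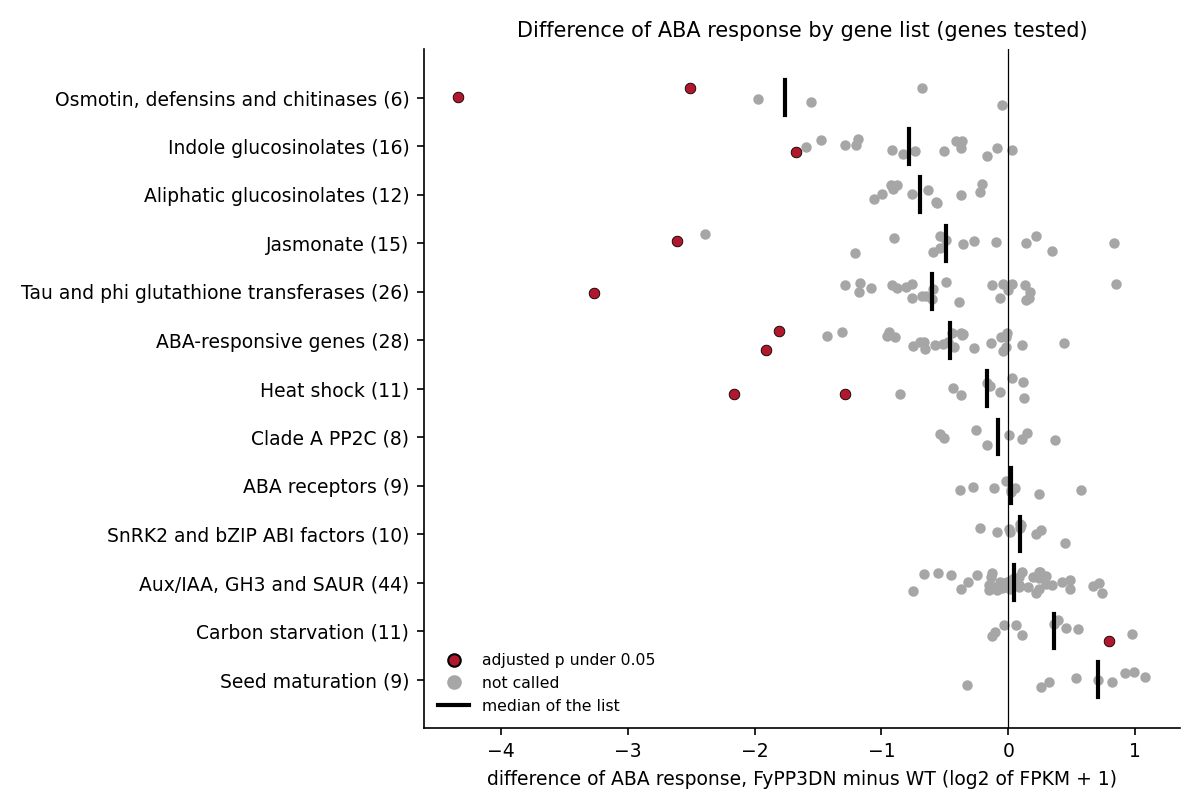
Difference of ABA response, FyPP3DN minus WT, on the log2 scale for each gene tested in 13 gene lists, with the number tested in brackets. Black bars are list medians, from -1.76 in the osmotin list to 0.71 in the seed maturation list, and coloured points passed an adjusted p under 0.05.

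FACT, THAS1 and CYP708A2 were also called lower, whereas of 14 root suberin genes none was called by limma, 2 had an unadjusted p under 0.05, and the median was -0.27. FACT, which makes alkyl caffeates of root waxes, had 12.2, 8.56 and 30.8 FPKM in FyPP3DN with ABA, 7.64, 2.84 and 7.70 in FyPP3DN without, 41.0, 64.3 and 62.9 in WT with ABA, and 2.24, 4.84 and 5.28 in WT without (difference -2.24 ± 0.40, adjusted p = 0.0122; 0.0531 without WT +ABA replicate 1). THAS1, the thalianol synthase gene, and CYP708A2, the thalianol hydroxylase gene, lie in one cluster on chromosome 5 (19456837 to 19461706 and 19444103 to 19447866). Their differences were -1.99 ± 0.44 (adjusted p = 0.0476) and -2.40 ± 0.42 (adjusted p = 0.0106), and the CYP708A2 response was -1.05 in FyPP3DN and 1.35 in WT. Another of several groups of neighbours, on chromosome 3, held the nitrile specifier gene NSP1 and the jacalin lectin genes JAL31 and JAL33. They were noticed after their values were seen, apart from JAL33 (-1.86 ± 0.35, limma adjusted p = 0.0158). Of the 70 genes called lower, 13 (18.57%) had another of them within 20000 bases. The same held for 516 of 1166 genes called up with ABA in WT (44.25%), a larger set. In these seedlings a transcript that falls can mean fewer cells of a type or less RNA per cell, which cannot be told apart.

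Markers of root tissue varied between the groups. The summed FPKM of 9 root markers was 39.7, 41.2 and 48.7 in FyPP3DN with ABA, 79.2, 31.7 and 73.1 in FyPP3DN without, 44.4, 46.9 and 44.1 in WT with ABA, and 31.5, 61.0 and 60.1 in WT without. That of 8 root hair markers was 8.47, 5.96 and 17.7, then 22.4, 3.71 and 32.1, then 20.6, 17.59 and 16.7, and then 2.71, 17.9 and 15.4 in the same order of groups. The low values without ABA were those of the plastid-rich library of each line. All 7 root hair markers tested had a difference below 0, with a median of -0.83, as had 7 of 8 root markers, with a median of -0.20. With 1 library left out, the root hair median ranged from -0.55 (WT control replicate 1 or FyPP3DN control replicate 3) to -1.30 (FyPP3DN control replicate 2), and the root median from -0.01 (WT control replicate 1) to -0.40 (FyPP3DN control replicate 2). No marker was called by limma, and 1 of each list had an unadjusted p under 0.05. No root or root hair marker was at 0 throughout a group. Their part in the result was not tested.

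Few heat shock and osmolyte genes were called. HSP22.0, an endoplasmic reticulum small heat shock protein gene, was called beside HSP18.2 (-1.29 ± 0.25, adjusted p = 0.0189), with 1.63, 0.60 and 0.31 FPKM in FyPP3DN with ABA against 3.61, 2.45 and 3.43 in WT with ABA. The other 9 heat shock genes tested did not pass, and the list's median of -0.17 was unstable: it was -0.58 without WT control replicate 1, ranged from -0.10 to -0.42 without any other single library, and was -0.62 in the plastid-poor and 0.36 in the plastid-rich libraries. GOLS4, a galactinol synthase gene, had 3.36, 3.84 and 2.99 FPKM in FyPP3DN with ABA and 8.45, 8.25 and 6.79 in WT with ABA, which did not overlap, and was called in the difference (-1.28 ± 0.24, adjusted p = 0.017). It was the 1 called member of 8 galactinol, raffinose and proline genes tested, of which 6 had a difference below 0 (median -0.60). By limma 5 of the 8 had an unadjusted p under 0.05, all with a difference below 0. The other called genes of this direction were MLP328 (a major latex-like protein gene, -1.80), LOX1 (a 9-lipoxygenase gene, -1.80), PRXCB (a peroxidase gene, -2.25) and EXPB3 (a beta-expansin gene, -1.03). The locus AT2G16005, named outside the rule after its values were seen, had a difference of -4.28 ± 0.46, with 45.0, 22.3 and 43.0 FPKM in FyPP3DN with ABA, 34.4, 20.3 and 67.8 in FyPP3DN without, 173, 177 and 161 in WT with ABA, and 6.72, 9.43 and 8.28 in WT without.

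Most of the 15 genes with a higher difference fell with ABA in WT. Of these, 10 were called down in WT (5.03% of all genes tested) and 6 called up in FyPP3DN, and 12 were called lower in FyPP3DN without ABA (1.35% of all genes tested). The 15 were chosen by the difference of the responses in the same libraries, so these counts describe its parts and add no support to it. BT1, which encodes a BTB and TAZ domain protein, had 19.5, 14.6 and 14.1 FPKM in FyPP3DN with ABA, 10.01, 16.2 and 13.2 in FyPP3DN without, 9.62, 9.55 and 12.04 in WT with ABA, and 21.5, 19.7 and 25.6 in WT without. WT without ABA stood above the rest, and the difference was 1.31 ± 0.21 (adjusted p = 0.00498). BT5 of the same family (1.05 ± 0.21, adjusted p = 0.0275) and bZIP1, a bZIP factor of low-energy signalling (0.86 ± 0.15, adjusted p = 0.0115), were called likewise. In FyPP3DN bZIP1 was at 20.5, 16.4 and 17.83 FPKM with ABA and 18.5, 22.8 and 18.0 without, against 13.8, 10.5 and 12.6 in WT with ABA and 24.4, 23.8 and 26.6 without.

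TPS11, a class II trehalose phosphate synthase gene, was the called member of the 11 carbon starvation genes (0.79 ± 0.16, adjusted p = 0.0288). Of these, 3 had a difference below 0 and 8 above it, with a median of 0.36, and 3 were called down with ABA in FyPP3DN against 8 in WT. The median fell to 0.08 without WT +ABA replicate 2, 0.16 without WT control replicate 3 or FyPP3DN control replicate 1, 0.20 without WT +ABA replicate 1 and 0.11 in the plastid-rich libraries. CYP707A2, an ABA 8'-hydroxylase gene that breaks ABA down, rose in both lines, with 7.51, 7.91 and 8.72 FPKM in FyPP3DN with ABA, 2.64, 2.53 and 3.31 in FyPP3DN without, 6.05, 6.03 and 8.09 in WT with ABA, and 4.76, 4.92 and 3.88 in WT without. Without ABA it was lower in FyPP3DN in every library, and the difference was 0.77 ± 0.16 (adjusted p = 0.0402). WRI4, an AP2 factor of wax synthesis (1.1), MES16, a methylesterase gene (0.82), PDX1.1, of vitamin B6 synthesis (0.69), and GBF1, a G-box binding factor (0.59), were the other named genes of this direction. Of the 9 named genes called higher, BT1 and PDX1.1 also passed without the library type term.

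Of 9 seed maturation genes tested, 7 were called up with ABA in FyPP3DN and 5 in WT, while between the lines 1 of the 9 was called higher in FyPP3DN with ABA and 1 without. The summed FPKM of all 19 genes of the list was 112, 35.3 and 155 in FyPP3DN with ABA, 8.68, 6.65 and 47.3 in FyPP3DN without, 29.4, 17.57 and 26.4 in WT with ABA, and 3.34, 3.82 and 1.93 in WT without. The groups of each condition did not overlap, and replicate 3 of FyPP3DN was the highest under both. Of the 9, 8 had a difference above 0, with a median of 0.71. That median moved by over 1.5 times without FyPP3DN +ABA replicate 3 (0.33), FyPP3DN control replicate 2 (0.39), FyPP3DN control replicate 1 (0.43) or WT +ABA replicate 2 (0.46), and between the plastid-poor (0.46) and plastid-rich libraries (1.45); no member was called by limma, and 0 had an unadjusted p under 0.05. ICL, the isocitrate lyase gene of seed oil breakdown, was higher in FyPP3DN both with ABA (log2 2.46 ± 0.53, adjusted p = 0.0167) and without (2.86 ± 0.53, adjusted p = 0.00807), and its difference of response was -0.40 ± 0.75 (adjusted p = 0.849).

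Auxin genes gave no calls in the difference. Of 44 Aux/IAA, GH3 and SAUR genes, early targets of auxin, the median difference was 0.04, which changed sign with the library left out (-0.07 to 0.15), with differences from -0.75 to 0.74, and of 17 auxin transport genes the median was -0.11. No gene of either list was called by limma; 2 and 3 had an unadjusted p under 0.05.

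The genes named above varied in how firmly their calls held. Of the 28 named genes called, 8 stayed called with any 1 library left out, namely OSM34, GSTU25, PDF2.1, HSP18.2, ICS2, LTP3, BT1 and bZIP1. CYP708A2, FACT and KIN1 lost their calls without WT +ABA replicate 1 alone, and the other 17 without 3 to 10 of the 12 libraries, one at a time. The 8 were not firm under every change of model, library set or processing. There bZIP1 lost its call in 5 settings, LTP3 and BT1 in 3 each, and OSM34, GSTU25, PDF2.1, HSP18.2 and ICS2 in 1 each.

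The ABA responses of the 85 genes in the other genotypes were read as a description. In nrp1 nrp2 the 70 genes called lower had a median response of 1.06, with 63 above 0, and in the libraries labelled as its combination with FyPP3DN 1.62, with 67 above 0. For OSM34 the response was -0.25 in FyPP3DN, 4.49 in nrp1 nrp2, 4.27 in the labelled combination and 4.09 in WT. The combination libraries did not show raised FYPP3. The 15 genes called higher had medians of -0.31 in nrp1 nrp2 and -0.59 in the combination.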

How the data were processed

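Transcripts were measured by RNA sequencing in 24 seedling libraries, of which the 12 of FyPP3DN and WT were compared. The authors deposited FPKM per gene, with 2 decimals. The submitters' processing notes name Trimmomatic 0.30, HISAT2 2.0.1 and the build TAIR10; a counter, an annotation and a strand setting are named nowhere in the labels. The labels' protocol offers poly(A) isolation or an rRNA removal kit and does not assign them to libraries. Depth was read from the step that 1 fragment makes in genes shorter than 400 bases (99.8% to 100% of values whole within 0.1). FPKM was used as log2(FPKM + 1), which understates fold changes of low genes. No 2 libraries were identical.

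limma 3.58.1 in R 4.3.3 was fitted over all 24 libraries with 8 group means, a library type term (plastid-encoded share of at least 1% of summed FPKM), empirical Bayes moderation and an intensity trend. Tests were two-sided, with Benjamini-Hochberg adjustment over the 19087 genes and 5 contrasts, each adjusted alone. The fit was tested on simulated data. Alternatives covered the term, the libraries, pseudocounts, filters, scalings and each library left out. Coordinates and sequences are RefSeq's for TAIR10.1, counted from 1.

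Named genes were up to 15 per direction with the largest called difference, a symbol and a mean of at least 5 FPKM in the highest group, up to 3 called members per list, and 17 genes followed throughout, of which 1 is not reported here. The members and the 34 gene lists were chosen with earlier results of these data known.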

Additional observations from a re-analysis of the deposited data

Results flagged for a closer look

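The 28 named genes whose ABA response differed between FyPP3DN and WT by limma's test of the difference itself are given here with that difference on the log2 scale, FyPP3DN minus WT. Among genes of defence and specialised metabolism it was -4.33 for OSM34, -2.51 for PDF2.1, -3.26 for GSTU25, -2.61 for VSP1, -2.40 for CYP708A2, -1.99 for THAS1, -1.67 for IGMT5, -2.13 for ICS2, -1.86 for JAL33, -1.80 for MLP328, -1.80 for LOX1 and -2.25 for PRXCB. It was -1.91 for LTP3, -1.81 for KIN1, -2.24 for FACT, -1.28 for GOLS4 and -1.03 for EXPB3. The small heat shock genes HSP18.2 and HSP22.0 had -2.16 and -1.29.

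In the other direction the difference was 1.31 for BT1, 1.05 for BT5, 1.1 for WRI4, 0.86 for bZIP1, 0.82 for MES16, 0.79 for TPS11, 0.77 for CYP707A2, 0.69 for PDX1.1 and 0.59 for GBF1. Of the 28, 10 also passed without the library type term, 2 in the plastid-poor libraries alone and 8 with any 1 library left out.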

How the results depend on the processing

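The differences of the 85 called genes kept their sign in every alternative in which they were tested (73 of them under the filter of 5 FPKM). The genes were chosen for a large difference in these same libraries, so the kept sign adds no support. Changing the model term leaves the differences as they are when all libraries are in use. The counts of calls moved, and the cause was not tested. Without the library type term, 2 genes were called higher and 26 lower in the difference, with 1142 calls for the ABA response of FyPP3DN, 169 between the lines with ABA and 112 without. The 12 libraries alone with the term gave 2 higher, 24 lower, 212 with ABA and 69 without. Without term and other libraries there were 0 higher and 6 lower, 682 for FyPP3DN, 1041 for WT, 60 with ABA and 29 without. Plastid-poor libraries alone gave 1 higher, 8 lower, 818 for FyPP3DN, 993 for WT, 40 with ABA and 43 without. Library weights gave 4 higher, 1060 for FyPP3DN and 302 without ABA. Pseudocounts, filters and scalings kept every count within 1.5 times.

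With a replicate block in place of library type, 3 genes were called higher and 25 lower, 209 with ABA and 194 without. Whether replicate numbers pair the samples was not settled. Residuals of equally numbered libraries correlated at 0.32 to 0.79 in the 12 pairs of one library type, where number and type cannot be told apart. In the 6 pairs of different type they correlated at -0.69 to -0.32, so there the residuals went with type and not with number. All 6 involved FyPP3DN control, whose plastid-rich library is replicate 2 and not replicate 1. Within plastid-poor libraries, the differences between replicates 2 and 3 correlated between groups at 0.13 to 0.19, a check added after seeing the data. Leaving out 1 library gave 3 to 184 genes higher and 27 to 244 lower, 1101 to 2235 calls for FyPP3DN, 1445 to 2198 for WT, 116 to 431 with ABA and 78 to 831 without. The split was 184 higher and 244 lower without FyPP3DN control replicate 2, and 45 and 83 without WT +ABA replicate 3, against 15 and 70 with all libraries. Depth limits genes of low FPKM, such as HSP22.0.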
